A study of Homo sapiens with 12 samples.

Results

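The 26S proteasome is encoded by a set of constitutive subunit genes, and 31 of them were followed here in LMSU cells, an established human line described as gastric cancer with the p53 missense mutation R175H. The genes were chosen by name and not by their values, though with earlier results of these data known. They comprised 7 alpha (PSMA) and 7 beta (PSMB) genes of the 20S core, and 6 ATPase (PSMC) and 11 non-ATPase (PSMD) genes of the 19S cap. All 31 were found among the 25435 genes of the count table, and all 31 passed the filter on low counts that left 13365 genes for testing. RNA sequencing covered 12 libraries in 6 groups of 2. In the knockout arm, cells with p53 knocked out (GFP_sg-1) were set against a control construct (GFP_V2), and both carried a GFP mark in their names and received no doxycycline. In the knockdown arm, p53 shRNA-1 and p53 shRNA-2 were set against a scramble shRNA and an empty vector, and all 4 groups received doxycycline. The line carries the mutation in every group, and the labels mark it as absent after knockout or knockdown. The medium was Ham's F-10 throughout. Whether a group's libraries stem from separate cultures, and whether the knockout was 1 clone, is not stated, so p-values measure the spread between libraries, which may be technical.

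The proteasome degrades proteins that carry ubiquitin chains. The 20S core is a barrel in which rings of alpha subunits form a gate and rings of beta subunits hold the protease sites: PSMB5 gives the chymotrypsin-like, PSMB6 the caspase-like and PSMB7 the trypsin-like activity. The 19S cap recognises the ubiquitin chain through PSMD4 and other receptors, removes it through the deubiquitinase PSMD14, and unfolds and threads the substrate through the ring of PSMC ATPases. The subunits are needed in fixed proportions, and the transcription factor NFE2L1 (NRF1) raises their genes together when proteasome activity falls short. Missense mutants of p53 have been reported, in breast cancer cells, to raise transcription of proteasome genes together with NFE2L2 (NRF2). The comparisons below ask whether the 31 genes were lower once mutant p53 was removed from LMSU cells.

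The promoters of the members that the results turn on are shown first: those called in a comparison within the knockdown arm, and PSMC6, which had the smallest difference between the arms. Promoter windows of 250 bases before the annotated start were taken from RefSeq (build GRCh38.p14). Of the 31 members, 26 were matched, with 32 windows in all. Capitals mark matches, on either strand, to CCAAT (the box bound by NF-Y), CCGGAA (the core bound by ETS factors) or TGACNNNGC (the core of the antioxidant response element bound by NFE2L1 or NFE2L2 with a small MAF protein). PSMD11 lies at chr17:32444260-32444509 (plus strand), PSMC2 at chr7:103347393-103347642 (plus strand), PSMD12 at chr17:67366578-67366827 (minus strand), PSMA3 at chr14:58244593-58244842 (plus strand) and PSMC6 at chr14:52706950-52707199 (plus strand).
PSMD11: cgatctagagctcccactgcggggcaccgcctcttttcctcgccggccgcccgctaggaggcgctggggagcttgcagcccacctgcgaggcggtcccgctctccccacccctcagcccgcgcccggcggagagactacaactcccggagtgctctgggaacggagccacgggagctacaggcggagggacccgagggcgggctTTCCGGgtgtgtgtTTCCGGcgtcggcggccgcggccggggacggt
PSMC2: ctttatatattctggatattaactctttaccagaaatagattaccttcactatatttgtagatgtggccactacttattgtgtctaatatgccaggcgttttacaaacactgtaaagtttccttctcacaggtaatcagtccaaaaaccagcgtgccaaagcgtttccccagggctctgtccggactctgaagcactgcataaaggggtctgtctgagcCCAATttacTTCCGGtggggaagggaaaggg
PSMD12: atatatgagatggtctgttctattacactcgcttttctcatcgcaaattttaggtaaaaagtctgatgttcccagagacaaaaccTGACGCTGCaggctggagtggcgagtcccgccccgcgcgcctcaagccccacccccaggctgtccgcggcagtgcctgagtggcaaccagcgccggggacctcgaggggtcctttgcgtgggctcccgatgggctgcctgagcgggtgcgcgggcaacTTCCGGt
PSMA3: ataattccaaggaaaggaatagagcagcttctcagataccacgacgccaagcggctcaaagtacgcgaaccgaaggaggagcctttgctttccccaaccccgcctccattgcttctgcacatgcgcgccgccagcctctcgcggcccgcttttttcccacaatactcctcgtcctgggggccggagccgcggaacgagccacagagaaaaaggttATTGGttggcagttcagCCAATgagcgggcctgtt
PSMC6: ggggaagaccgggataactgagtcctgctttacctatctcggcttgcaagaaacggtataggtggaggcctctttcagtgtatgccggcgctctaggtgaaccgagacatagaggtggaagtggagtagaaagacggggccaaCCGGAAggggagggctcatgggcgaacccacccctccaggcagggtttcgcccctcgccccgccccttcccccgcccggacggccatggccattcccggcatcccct

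PSMD11 held 2 ETS cores, PSMC2 held 1 CCAAT box and 1 ETS core, PSMD12 held 1 antioxidant response core and 1 ETS core, PSMA3 held 2 CCAAT boxes, and PSMC6 held 1 ETS core. No motif was common to the 5 windows. Over the 32 member windows, CCAAT was found in 14 (43.8%), against 32% of all 35116 windows. CCGGAA was found in 11 member windows (34.4%), against 14.5% of all windows. TGACNNNGC was found in 5 (15.6%), those of PSMA4, PSMB3, PSMC5, PSMD3 and PSMD12, against 10.9% of all windows. A match is a run of letters and not a measured binding site.

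Library totals ran from 9738094 to 16823246 counts, and no member had fewer than 250 counts in any library. Levels are given as CPM, counts scaled to library size with TMM factors, and are not compared between genes because they are not divided by transcript length. Markers were checked against the label of a gastric cancer line: EPCAM, KRT19 and CDH1 had at most 4 counts in any library and the 7 gastric markers in the table at most 10, while 5 immune markers had at most 3 counts. KRT7, KRT8 and KRT18 passed the filter on low counts, at 0.83 to 7.23, 63.9 to 208 and 185 to 283 CPM. VIM, a mesenchymal filament protein, stood at 6814 to 16387 CPM. Of the markers checked, the label's gastric origin was thus matched by none. Of 6 epithelial markers 3 passed the filter, and of these KRT7 lay near the floor. In these bulk libraries, fewer cells of a type and less RNA per cell cannot be told apart.

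The members stood at 2 levels by arm. Set against each gene's mean over the 12 libraries, the median of the 31 members was 0.47 and 0.71 (log2) in the 2 knockout libraries and 0.89 and 0.51 in the 2 knockout control libraries. It was -0.39 and -0.38 with shRNA-1, -0.35 and -0.30 with shRNA-2, -0.26 and -0.31 in scramble and -0.27 and -0.30 in vector. The groups of the knockout arm overlapped, with control replicate 1 highest and knockout replicate 1 lowest of the 4, and the 8 knockdown-arm libraries lay close together. Summed over the 31 genes, proteasome messages took 0.731% ± 0.054 of all counts in the knockout and 0.773% ± 0.097 in its control (SD, n = 2 each). They took 0.316% ± 0.0016 with shRNA-1, 0.318% ± 0.0049 with shRNA-2, 0.334% ± 0.0054 in scramble and 0.345% ± 0.0024 in vector (SD, n = 2 each).

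**Figure D1:**
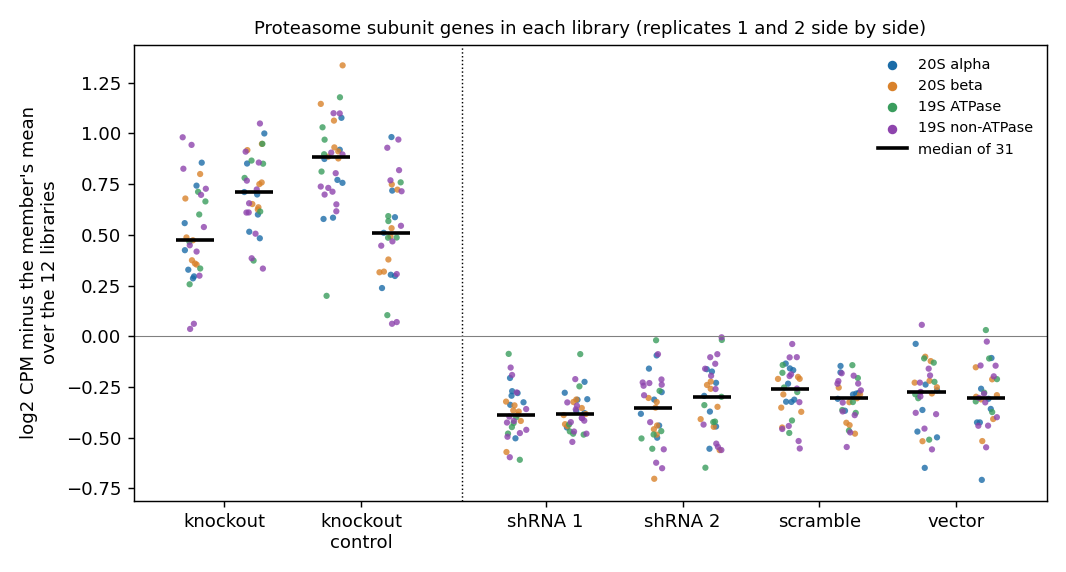
Each point is 1 of the 31 members in 1 library, as log2 CPM minus that gene's mean over the 12 libraries; bars are medians, colours are the 4 subunit classes, and the dotted line separates the knockout arm from the knockdown arm. The knockout medians (0.47 and 0.71) overlap those of the knockout control (0.89 and 0.51), and the 8 knockdown-arm medians lie between -0.39 and -0.26.

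The 2 knockout control libraries differed from each other across nearly the whole set. Replicate 1 stood above replicate 2 for 29 of 31 members, by a median of 0.33 on the log2 scale, against 0.06 over all tested genes. Between the knockout libraries, replicate 1 was higher for 2 of 31 members, with a median difference of -0.23, against -0.04 over all genes. Total counts moved the same way: 11998608 and 13538425 in knockout replicates 1 and 2, and 13666562 and 10351171 in control replicates 1 and 2. Their part in the spread was not tested.

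No proteasome subunit gene was called different between the p53 knockout and its control. With edgeR's quasi-likelihood test and Benjamini-Hochberg adjustment over all 13365 genes, 0 of 31 members were called, where 0.015% of all genes were; at an unadjusted p under 0.05 the count was also 0, and DESeq2 also called 0. The median log2 fold change of the members was -0.10, against -0.01 over all tested genes, and 27 of 31 members had a value below 0. The members ranged from -0.25 (PSMB6) to 0.16 (PSMC6). The 95% intervals lay within 1.5-fold of no change for 29 of 31 members. These intervals use the spread shared by all 12 libraries. A fit to the 4 libraries of the arm alone called 0 members and 0% of all genes, and its intervals are wider: the median SE of the members was 0.18, against 0.13 in the shared fit.

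Among the alpha genes, which form the gate of the core, the knockout median was -0.05. PSMA7 had 214 and 244 CPM in the knockout, against 295 and 206 CPM in its control. PSMA5 had 129 and 156 CPM in the knockout, against 182 and 137 CPM in its control. Control replicate 1 was the highest library and the groups overlapped for both genes.

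The beta genes, which hold the protease sites, had a knockout median of -0.12, and all 7 values were below 0. PSMB6, the caspase-like subunit, had 176 and 215 CPM in the knockout, against 281 and 184 CPM in its control. Its log2 fold change was -0.25 (95% interval -0.60 to 0.10, adjusted p 0.79). PSMB3, a non-catalytic beta subunit, had 96.2 and 116 CPM in the knockout, against 152 and 99.2 CPM in its control. The groups overlapped here too, and these were the 2 members whose intervals reached past 1.5-fold. PSMB5, the chymotrypsin-like subunit and the main target of the drug bortezomib, had 147 and 178 CPM in the knockout, against 210 and 142 CPM in its control. PSMB4, a structural beta subunit, had 242 and 288 CPM in the knockout, against 351 and 243 CPM in its control.

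In the 19S cap the knockout median was -0.10 for the ATPases and -0.07 for the non-ATPase subunits. PSMC3 had 306 and 381 CPM in the knockout, against 434 and 310 CPM in its control. PSMC1, whose tail helps to open the gate of the core, had 47.2 and 57.4 CPM in the knockout, against 65.8 and 52.5 CPM in its control. PSMD2, the scaffold of the cap base, had 1212 and 1326 CPM in the knockout, against 1568 and 1247 CPM in its control. In all 3 genes control replicate 1 was again the highest library of the arm. PSMC6 was the single member whose groups did not overlap, with 104 and 113 CPM in the knockout, against 100 and 94.0 CPM in its control (log2 fold change 0.16, 95% interval -0.01 to 0.34, adjusted p 0.78). Over all tested genes, 12% lay wholly above and 11.2% wholly below the control.

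The knockout result rested on which control library was used. Without control replicate 2, 19 of 31 members were called, all lower in the knockout, with a median of -0.29, and 30.3% of all genes were called. That fit has 1 control library, which is assumed to vary like the other groups, most of them in the less variable knockdown arm. Without control replicate 1, 0 members were called, and the median was 0.11 with 28 of 31 values above 0. No direction for the set can be read from the knockout.

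For the mean of both p53 hairpins against scramble, 1 of 31 proteasome genes was called, PSMD11, a share near that of all genes. PSMD11 encodes a lid subunit that clamps the cap to the core. It had 68.8 and 68.4 CPM with shRNA-1 and 64.4 and 64.9 CPM with shRNA-2, against 83.2 and 80.6 CPM in scramble. All 4 hairpin libraries lay below both scramble libraries, as they did for 7 of 31 members and 14.3% of all tested genes. For the mean of both hairpins the log2 fold change was -0.30 (SE 0.070, adjusted p 0.026). This made 3.23% of the members called lower, where 6.77% of all genes were called and 3.66% were called lower. With shRNA-2 alone PSMD11 fell by 0.34 (SE 0.081, adjusted p 0.027), and with shRNA-1 alone the value was -0.26 (adjusted p 0.076). In vector PSMD11 had 78.4 and 85.7 CPM, and it was at -0.34 with shRNA-2 (SE 0.081, adjusted p 0.011) and at -0.26 with shRNA-1 (adjusted p 0.060) relative to vector. In the knockout arm it had 154 and 157 CPM in the knockout, against 158 and 156 CPM in its control, and the groups overlapped (log2 fold change -0.02, 95% interval -0.19 to 0.16). Exons of PSMD11 overlap those of AC005899.8 on the opposite strand, and the strand setting of the counting is not given in the sources used here, so their reads may be mixed. The call for the mean of both hairpins was lost when any 1 of the 6 shRNA or scramble libraries was left out (values -0.28 to -0.32). Such a fit, here and below, leaves 1 library in a group, so lost power and an unstable result cannot be told apart. The call for the mean of both hairpins was also lost under the replicate block (adjusted p 0.11) and with no filter on low counts (adjusted p 0.070). The shRNA-2 call against vector was lost without either shRNA-2 library or vector replicate 2 (adjusted p 0.076 to 0.13).

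PSMC2, an ATPase of the cap, was called with shRNA-2 only, among the hairpin comparisons against scramble. It had 57.0 and 55.6 CPM with shRNA-1 and 51.1 and 47.9 CPM with shRNA-2, against 66.3 and 65.1 CPM in scramble and 60.8 and 62.0 CPM in vector. Each hairpin's libraries lay below those of both controls. Over all tested genes, 31% lay wholly below scramble with shRNA-1 and 31.4% with shRNA-2. Wholly below vector lay 34.1% with shRNA-1 and 36.1% with shRNA-2. Relative to scramble the log2 fold change was -0.41 with shRNA-2 (SE 0.11, adjusted p 0.049), -0.22 with shRNA-1 (adjusted p 0.26) and -0.32 for the mean of both (adjusted p 0.076). In the knockout PSMC2 had 119 and 136 CPM, against 140 and 113 CPM in its control, which gives 0.01 with a 95% interval of -0.23 to 0.24. With shRNA-2 against scramble, PSMC2 and PSMD11 made 2 of 31 members called, both lower, where 7.74% of all genes were called and 4.15% were called lower. Neither was called by DESeq2 (adjusted p 0.060 for PSMC2 and 0.051 for PSMD11) or with any 1 of the 4 libraries left out (adjusted p 0.18 to 0.30 for PSMC2 and 0.14 to 0.19 for PSMD11).

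The members' values with the hairpins lay close to 0. For the mean of both hairpins against scramble, the 31 values ran from -0.32 (PSMC2) to 0.09 (PSMC6), with a median of -0.04 against -0.00 over all genes, and all 31 intervals lay within 1.5-fold of no change. The class medians were -0.06 for alpha, -0.04 for beta, -0.08 for ATPase and -0.04 for non-ATPase genes. At an unadjusted p under 0.05 there were 3 members, PSMD11, PSMC2 and PSMA3. PSMB6 had 95.1 and 94.0 CPM with shRNA-1 and 90.7 and 93.2 CPM with shRNA-2, against 98.1 and 91.0 CPM in scramble. Its hairpin libraries lay inside or next to the range of the scramble libraries. In vector PSMB6 had 117 and 114 CPM, above every hairpin and scramble library, and with shRNA-2 it was not called relative to vector (edgeR adjusted p 0.19). PSMA7 had 142 and 140 CPM with shRNA-1 and 144 and 149 CPM with shRNA-2, against 148 and 143 CPM in scramble and 170 and 162 CPM in vector. PSMB4 had 147 and 150 CPM with shRNA-1 and 149 and 156 CPM with shRNA-2, against 161 and 149 CPM in scramble and 159 and 153 CPM in vector. For PSMB4 both hairpins overlapped scramble, while for PSMA7 the shRNA-1 libraries lay just below scramble, shRNA-2 overlapped it, and vector was highest. PSMC1 had 26.9 and 26.8 CPM with shRNA-1 and 31.1 and 30.5 CPM with shRNA-2, against 31.5 and 29.1 CPM in scramble and 34.2 and 38.3 CPM in vector. PSMB3 had 40.4 and 46.1 CPM with shRNA-1 and 36.9 and 40.7 CPM with shRNA-2, against 47.1 and 44.7 CPM in scramble and 49.4 and 45.3 CPM in vector. For PSMC1 the shRNA-1 libraries were the lowest of the arm, and for PSMB3 the shRNA-2 libraries lay below both controls. With shRNA-1, 17 of 31 members lay wholly below scramble and 3 wholly above, where 31% of all tested genes lay on each side. With shRNA-2, 11 lay wholly below and 7 wholly above, where 31.4% of all tested genes lay below and 31.1% above. With shRNA-1 against scramble, 0 of 31 members were called by edgeR, where 9.41% of all genes were, with 1 at an unadjusted p under 0.05 and a median of -0.09.

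**Figure D2:**
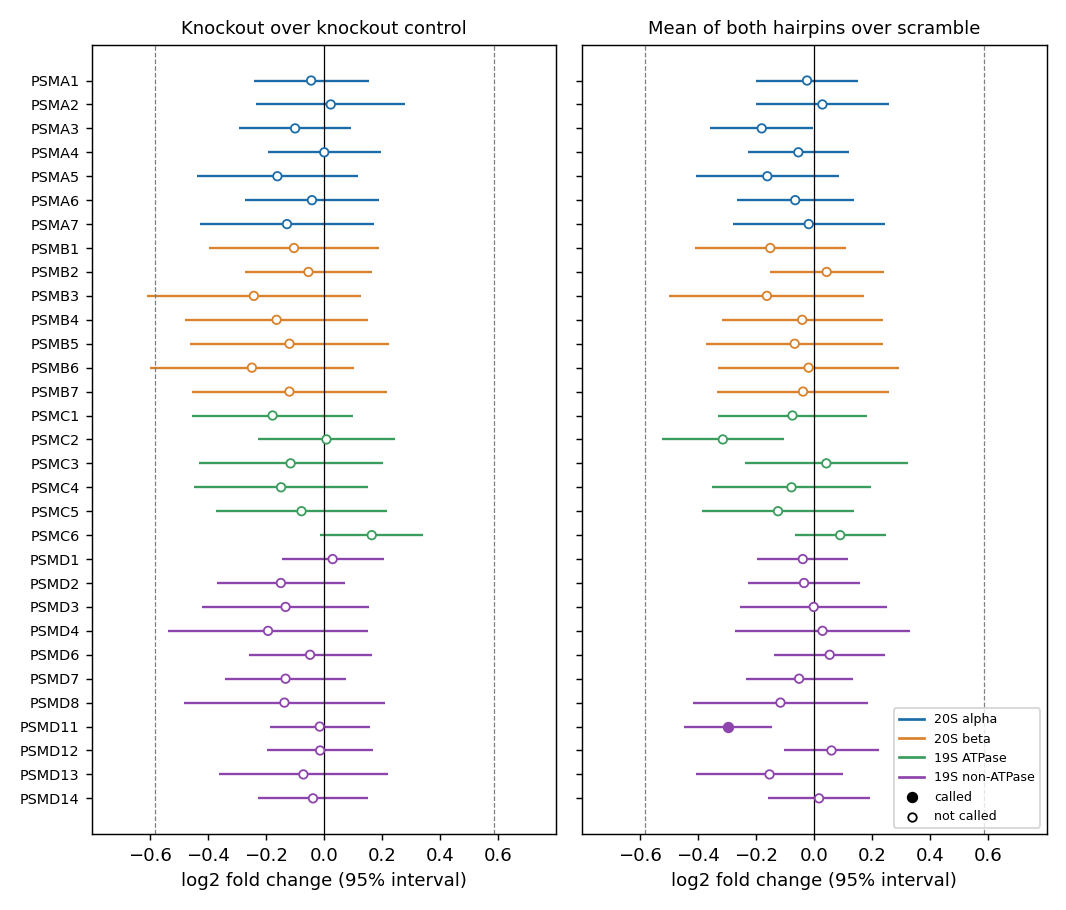
Log2 fold change with its 95% interval for each of the 31 members, in the knockout over its control (left) and in the mean of both hairpins over scramble (right); filled points passed the adjusted threshold of 0.05 and dashed lines mark 1.5-fold. PSMD11 at -0.30 on the right is the filled point, and 2 intervals on the left, those of PSMB3 and PSMB6, pass the dashed line.

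Against the empty vector few members were called. With shRNA-1, 0 of 31 members were called by edgeR (13% of all genes, and 3 members at an unadjusted p under 0.05), with a median of -0.10. PSMD2 had 484 and 510 CPM with shRNA-1 and 546 and 541 CPM with shRNA-2. It had 605 and 602 CPM in vector and 539 and 527 CPM in scramble, and its edgeR adjusted p with shRNA-1 over vector was 0.097. With shRNA-2, 2 of 31 were called (21% of all genes, 9.21% higher and 11.7% lower): PSMD11, given above, and PSMD12, with a median of -0.07 over the set. PSMD12, another lid subunit, had 53.3 and 56.9 CPM with shRNA-2, against 44.3 and 44.6 CPM in vector, and rose by 0.31 (SE 0.086, adjusted p 0.025). Against scramble, which had 47.5 and 52.0 CPM, the value was 0.15 (adjusted p 0.36). Neither replicate block (adjusted p 0.072) nor omission of any 1 of the 4 libraries (values 0.26 to 0.35, adjusted p 0.079 to 0.20) kept the PSMD12 call. These comparisons share hairpin libraries with those against scramble and are not independent of them.

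Between the 2 controls of the knockdown arm, 1 member was called. PSMA3, an alpha subunit, had 44.9 and 46.0 CPM in scramble, against 35.8 and 34.4 CPM in vector, a log2 fold change of 0.37 (SE 0.094, adjusted p 0.020). It was 1 of 31 members called, where 15.3% of all genes were called and 7.1% were called higher. With any 1 of these 4 libraries left out the value was 0.34 to 0.40 and not called (adjusted p 0.099 to 0.15), and it was not called under the replicate block (adjusted p 0.070). Of the 10 mesenchymal markers, 6 were higher and 1 lower in scramble than in vector (DCN at 2.22 and LUM at 1.44 on the log2 scale), and over vector 6 were higher and 1 lower with shRNA-1 and 6 higher and 2 lower with shRNA-2. The part of this in the comparisons with vector was not tested. For PSMA3 the hairpin libraries lay between the controls, at 39.6 and 41.1 CPM with shRNA-1 and 41.4 and 38.2 CPM with shRNA-2. Directly between the hairpins, shRNA-1 against shRNA-2, 0 of 31 members were called by edgeR (14.3% of all genes; 2 members at an unadjusted p under 0.05), and the median was -0.05.

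**Figure D3:**
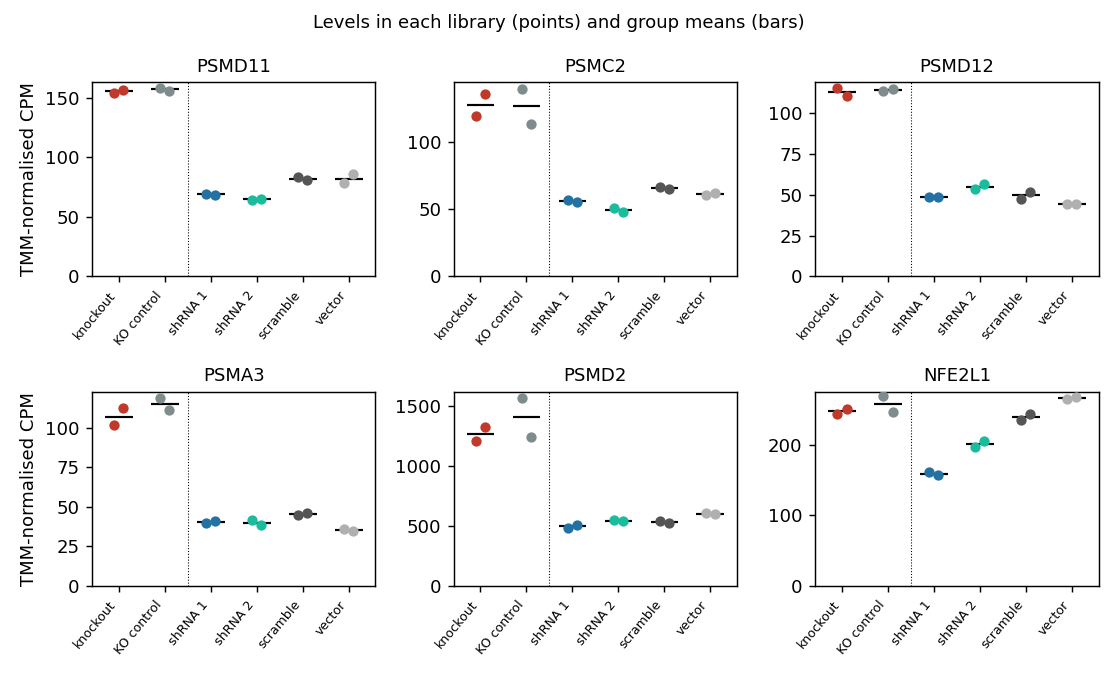
TMM-normalised CPM of PSMD11, PSMC2, PSMD12, PSMA3, PSMD2 and the regulator NFE2L1 in each of the 12 libraries (points) with group means (bars); each panel has its own linear axis from 0, and the dotted line separates the arms. PSMD11 lies at 64.4 to 68.8 CPM in the 4 hairpin libraries and at 80.6 to 83.2 CPM in scramble, and all 5 subunit genes lie higher in the 4 libraries left of the line.

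More members were called when the knockdown arm was fitted on its own, which changes the spread, the libraries and the genes tested (12980) together. The common biological coefficient of variation was 3.08% there, 15.6% among the knockout-arm libraries and 9.55% over all 12 libraries. The fit above uses 1 spread per gene for both arms. A fit to the 8 knockdown-arm libraries alone called 6 members for the mean of both hairpins, all lower than in scramble, where 29.8% of all genes were called and 15.3% were called lower. They were PSMD11 (-0.29), PSMC2 (-0.31), PSMA3 (-0.18), PSMA5 (-0.16), PSMD13 (-0.15) and PSMB1 (-0.14). PSMA5 had 76.1 and 74.0 CPM with shRNA-1 and 77.5 and 78.5 CPM with shRNA-2, against 86.2 and 85.0 CPM in scramble and 69.5 and 71.7 CPM in vector. The hairpin libraries thus lay below 1 control and above the other. In the same fit, 7 members were lower and 0 higher with shRNA-1 than in scramble, where 33.2% of all genes were called and 16.9% were lower. With shRNA-2, 3 were lower and 1, PSMD3, higher than in scramble, where 31.5% of all genes were called, 14.9% lower and 16.7% higher. Against vector, shRNA-1 gave 2 members higher and 11 lower, where 40.7% of all genes were called, 19% higher and 21.7% lower. Against vector, shRNA-2 gave 8 members higher and 12 lower, where 46.7% were called, 22.7% higher and 24.1% lower. Between the hairpins, 2 members were higher and 7 lower with shRNA-1, where 38.8% of all genes were called, 18.7% higher and 20.1% lower. Scramble against vector gave 3 higher and 6 lower, where 42.1% were called, 19.9% higher and 22.2% lower, so the controls differed from each other in 9 members and the mean of both hairpins from scramble in 6. PSMC3, an ATPase, had 165 and 187 CPM with shRNA-1 and 156 and 165 CPM with shRNA-2, against 166 and 160 CPM in scramble and 205 CPM in both vector libraries. The hairpin and scramble libraries all lay below vector, as they did for PSMB6. In this fit both genes were called lower than vector with each hairpin and in scramble.

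The knockout and knockdown effects were not shown to differ in any member. The knockout effect minus the mean hairpin effect was called for 0 of 31 members by edgeR, where 1.1% of all genes were; 2 members, PSMD11 at 0.28 (adjusted p 0.24) and PSMC2 at 0.32 (adjusted p 0.33), had an unadjusted p under 0.05, and DESeq2 also called 0. The median was -0.06. Leaving out control replicate 2 of the knockout arm gave 7 members, all below 0, with 24.5% of all genes called. Leaving out control replicate 1 gave 1 member, above 0, with 5.18% of all genes called.

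The gene of the proteasome regulator NFE2L1 fell with the hairpins. NFE2L1 had 162 and 157 CPM with shRNA-1 and 197 and 206 CPM with shRNA-2, against 235 and 245 CPM in scramble and 266 and 268 CPM in vector. All 4 hairpin libraries lay below all 4 control libraries. Over all tested genes, 14.3% had all 4 hairpin libraries below scramble, and the share below all 4 controls was not counted. Its log2 fold change was -0.42 for the mean of both hairpins over scramble (adjusted p 0.0036), -0.59 with shRNA-1 (adjusted p 0.001) and -0.25 with shRNA-2 (adjusted p 0.075). Over vector it was -0.74 with shRNA-1 (adjusted p 1.6e-04) and -0.40 with shRNA-2 (adjusted p 0.0032). In the knockout NFE2L1 had 245 and 252 CPM, against 270 and 247 CPM in its control (log2 fold change -0.06, adjusted p 0.83), and the difference between the 2 effects was 0.36 (adjusted p 0.12). It was 1 of 7 tested genes of the list of NFE2L1 control called for the mean of both hairpins, where 6.77% of all genes were, and NFE2L2 was at 0.00 in that comparison (adjusted p 0.99). The mean hairpin call for NFE2L1 was lost without either scramble library (adjusted p up to 0.091) and held without any of the other 4, and both calls against vector and that of shRNA-1 against scramble held without any 1 library.

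MAFF and MAFG, genes of small MAF partners of NFE2L1 and NFE2L2, differed between the hairpins, and which differences from control passed the test depended on the control used. MAFF had 68.9 and 68.5 CPM with shRNA-1 and 130 and 132 CPM with shRNA-2, against 115 and 112 CPM in scramble and 92.2 and 84.0 CPM in vector. It fell by 0.72 with shRNA-1 relative to scramble (adjusted p 0.0011) and by 0.36 relative to vector (adjusted p 0.033). With shRNA-2 it rose by 0.57 relative to vector (adjusted p 0.0014) but was at 0.21 relative to scramble (adjusted p 0.23), and scramble itself was above vector by 0.36 (adjusted p 0.026). MAFG fell by 0.36 with shRNA-1 relative to scramble (adjusted p 0.027) and was at -0.13 relative to vector (adjusted p 0.36). With shRNA-2 it rose by 0.52 relative to vector (adjusted p 0.0013) and was at 0.30 relative to scramble (adjusted p 0.059). MAFK was called with neither hairpin against either control (adjusted p 0.070 to 0.59). Between the hairpins MAFF differed by -0.93 and MAFG by -0.65 (shRNA-1 minus shRNA-2, adjusted p 0.00018 and 0.00075). The calls lost with any 1 of the 4 libraries compared left out were that of MAFG with shRNA-1 over scramble (adjusted p 0.11 to 0.20), that of MAFF with shRNA-1 over vector (adjusted p 0.087 to 0.25) and that of MAFF in scramble over vector (adjusted p 0.082 to 0.21).

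Genes that assemble the proteasome or act with it gave few calls outside the list of NFE2L1 control. Of that list, 3 of 7 tested genes were called lower with shRNA-1 than in scramble, where 5.01% of all genes were. In the knockout, 0 genes of the lists of assembly chaperones (10 tested), 19S-associated subunits (5), immunoproteasome subunits (3), alternative activators (5), NFE2L1 control (7) and ubiquitin, E1 and shuttle factors (15) were called by edgeR, with 0 at an unadjusted p under 0.05 and 0 by DESeq2. POMP, the chaperone that matures the core, had 45.2 and 46.3 CPM with shRNA-1, against 61.2 and 59.0 CPM in scramble, and fell by 0.39 (adjusted p 0.032). It was 1 of 10 assembly chaperones called there, where 9.41% of all genes were called and 5.01% were called lower. PSMG1, a chaperone of the alpha ring, had 27.3 and 25.3 CPM with shRNA-2, against 19.5 and 18.8 CPM in scramble, a difference of 0.46 (adjusted p 0.043). This made 1 of 10 assembly chaperones called, where 7.74% of all genes were called and 3.58% were called higher. Vector had 25.2 and 24.7 CPM, so that scramble was the lowest group of the arm; shRNA-2 was at 0.08 relative to vector (adjusted p 0.70), and DESeq2 called 0 assembly chaperones higher in that comparison. PSME3, the nuclear activator that caps the core in place of 19S, had 38.1 and 37.3 CPM with shRNA-1, against 25.8 and 28.1 CPM in vector, and rose by 0.48 (adjusted p 0.007). It was 1 of 5 alternative activators called, where 13% of all genes were called and 5.78% were called higher. PSMD10, an assembly chaperone, was lower with shRNA-2 (32.7 and 33.9 CPM) than in vector (42.4 and 43.8 CPM, edgeR adjusted p 0.029). RAD23B, of the ubiquitin list, was called lower than vector with both hairpins, 1 of 15 genes each time. Over all genes, 7.26% were called lower than vector with shRNA-1 and 11.7% with shRNA-2. The PSMD10 and RAD23B calls were lost without any 1 of their libraries. The same genes in the other hairpin or against the other control did not all pass the test, and these comparisons share controls. With shRNA-2, POMP had 61.5 and 56.4 CPM, overlapping scramble, and PSME3 had 26.3 and 26.6 CPM, overlapping vector. In scramble PSMD10 had 36.3 and 36.6 CPM, also below vector. The POMP and PSMG1 calls were lost without any 1 of their libraries (adjusted p 0.14 to 0.20 and 0.15 to 0.27), and the PSME3 call without shRNA-1 replicate 1 or vector replicate 1 (adjusted p up to 0.093).

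The clearest contrast among the proteasome genes lay between the control libraries of the arms, a comparison added once the data had been seen. All 31 members were higher in the knockout control than in the mean of scramble and vector, where 67.7% of all genes were called and 34.8% were called higher. The median log2 difference was 0.99, or 1.99-fold, against 0.02 over all tested genes. For all 31 members the 4 knockout-arm libraries lay above the 8 knockdown-arm libraries, as they did for 27.2% of all tested genes. Without knockout control replicate 1, 29 members were called, with a median of 0.81. The arms differ in doxycycline, in construct and in whatever else separated the experiments, and these cannot be told apart.

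The 4 classes had medians of 1.01 (alpha), 0.99 (beta), 1.01 (ATPase) and 0.98 (non-ATPase), which lie close together, while single genes within a class differed more. PSMA3 had 119 and 111 CPM in the knockout control, against 44.9 and 46.0 CPM in scramble and 35.8 and 34.4 CPM in vector, a log2 difference of 1.52 (SE 0.076, adjusted p 1.5e-08). PSMD14, the deubiquitinase of the lid, had 134 and 122 CPM in the knockout control, against 42.5 and 42.7 CPM in scramble and 47.7 and 45.9 CPM in vector, a difference also of 1.52 (SE 0.074, adjusted p 1.3e-08). PSMD2 had 1568 and 1247 CPM in the knockout control, against 539 and 527 CPM in scramble and 605 and 602 CPM in vector, a difference of 1.31 (SE 0.085, adjusted p 1.2e-07). In each of these the lower knockout control library stood far above the highest library of the other controls. The smallest difference was that of PSMC6, with 100 and 94.0 CPM in the knockout control, against 79.2 CPM in both scramble libraries and 74.8 and 75.5 CPM in vector, at 0.33 (SE 0.070, adjusted p 0.0012). PSMD8 (0.42) and PSMD4 (0.54), the ubiquitin receptor, came next. PSMD11 and PSMC2 lay near the middle of the set at 0.94 and 0.996.

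**Figure D4:**
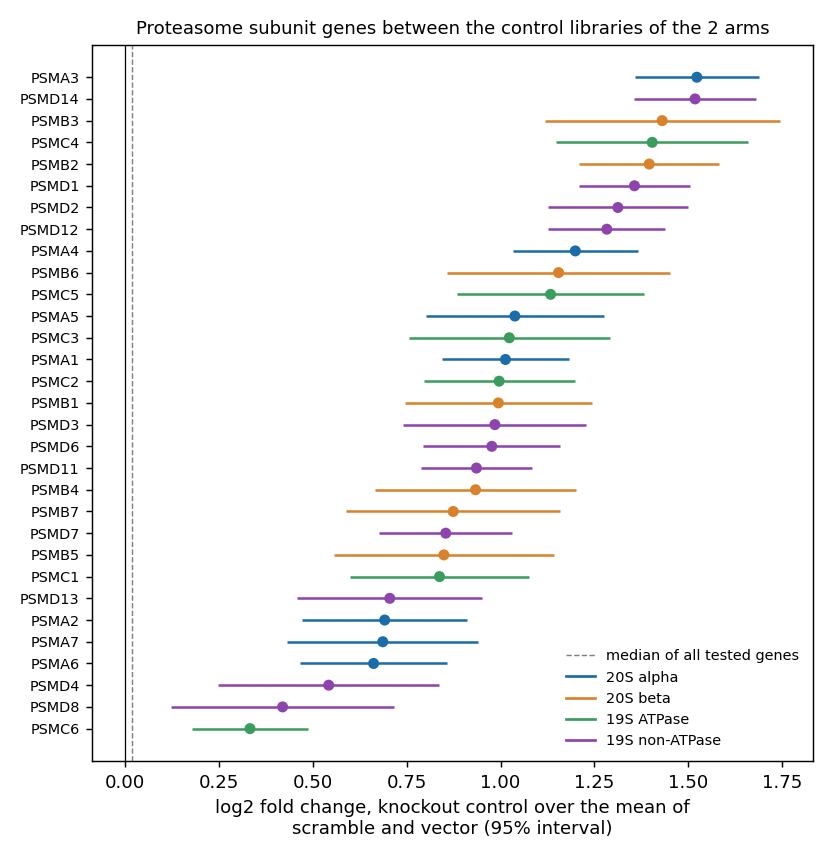
Log2 fold change of each of the 31 members in the knockout control over the mean of scramble and vector, with 95% intervals, ordered by size and coloured by subunit class; the dashed line is the median of all tested genes at 0.02. Values run from 0.33 for PSMC6 to 1.52 for PSMA3 and PSMD14, and every interval lies above 0.

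Other multi-subunit complexes gave the following counts in the same comparison, where 34.8% of all genes were higher and 33% lower; differences between complexes were not tested. All 8 genes of the CCT chaperonin, which folds actin and tubulin, were higher in the knockout control, with a median of 0.97. Of the COP9 signalosome, which resembles the 19S lid, 7 of 9 genes were higher and 1, COPS2, was lower (median 0.44). Of the translation initiation factor eIF3, which shares subunit folds with the lid, 5 of 12 were higher and 5 lower (median -0.00). Assembly chaperones gave 6 higher and 1 lower of 10 (median 0.45), with PSMG1 at 1.18 and POMP at 0.56, and 19S-associated subunits 4 higher of 5 (median 0.78), with the ubiquitin receptor ADRM1 at 1.17. VCP, the segregase that feeds substrates to the proteasome, was at 1.10 (adjusted p 2.7e-07), within a ubiquitin list of which 5 of 15 were higher and 1 lower.

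Neither the immunoproteasome gene PSMB9 nor the NFE2L1 group followed the constitutive subunits. Of the 5 alternative activators, PSME2 and PSME3 were higher, a share near that of all genes. PSMB9, the interferon-inducible replacement of PSMB6, had 35.7 and 23.8 CPM in the knockout control, against 60.1 and 63.9 CPM in scramble and 52.5 and 48.4 CPM in vector, a difference of -0.90 (adjusted p 1.5e-04). PSMB8 had 78.7 and 53.7 CPM in the knockout control, against 87.7 and 81.4 CPM in scramble and 84.2 and 75.9 CPM in vector. PSMB10 had 24.9 and 15.8 CPM in the knockout control, against 25.7 and 21.4 CPM in scramble and 21.6 and 21.4 CPM in vector. For PSMB8 and PSMB10 the knockout control libraries overlapped those of the other controls. Of these genes edgeR called PSMB9 alone. DESeq2 called 2 of the 3 tested immunoproteasome genes lower and 0 higher, where edgeR called 33% of all genes lower. The share of all genes called by DESeq2 is not given here. PSME3 had 138 and 128 CPM in the knockout control, against 30.7 and 29.6 CPM in scramble and 25.8 and 28.1 CPM in vector, a difference of 2.22 (adjusted p 1.1e-09), larger than that of any member. PSME2 had 127 and 89.5 CPM in the knockout control, against 74.5 and 69.6 CPM in scramble and 67.5 and 63.9 CPM in vector. DESeq2 called 2 of the 5 alternative activators higher and 0 lower, where edgeR called 34.8% of all genes higher. The knockout control libraries of PSME1 (142 and 100 CPM), PSME4 (69.4 and 91.5 CPM) and PSMF1 (135 and 99.9 CPM) overlapped those of the other controls. NFE2L1 itself was at 0.03, and 5 of the 7 tested genes of its list were lower and 0 higher, where 33% of all genes were lower, among them NFE2L2 at -0.62 and MAFK at -0.67. Mesenchymal markers moved the other way from the members: all 10 were lower in the knockout control, with a median of -2.53. Their summed level was 10839.6 to 13072.7 CPM in the 4 knockout-arm libraries and 41430.2 to 56968.2 CPM in the 8 knockdown-arm libraries. The part of this in the proteasome difference was not tested.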

How the data were processed

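RNA was sequenced from 12 LMSU libraries. The deposited table holds raw counts of reads for each gene. Per the submitters' processing notes, reads were handled with bcl2fastq and STAR 2.5 on hg19; how and on which strand and annotation reads were counted is not given in the sources used. Groups were taken from the labels. Counts were filtered (filterByExpr, minimum count 10), scaled by TMM and tested with edgeR 4.0.16 (quasi-likelihood, limma 3.58.1, R 4.3.3) over all 12 libraries with 1 coefficient per group, which leaves 6 residual degrees of freedom. Benjamini-Hochberg adjustment ran over 13365 genes, with calls under 0.05. Intervals of 95% come from the model and cover spread between libraries. Library totals ran from 9738094 to 16823246 counts. The libraries of each group differed beyond counting noise (chi-square per degree of freedom 1.56 to 34.4), which does not tell separate cultures from repeat preparations; no libraries were merged.

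Of 10 comparisons, 9 were planned and 1, between arm controls, was added after seeing the data. Alternatives were DESeq2 1.42.0, RLE size factors, no filter, a minimum count of 50, a fit to 1 arm, a replicate block, and each library left out. All 31 members could be named. Values by library were given, though not for every group, for the member with the highest mean and the 2 with the smallest adjusted p in each class. From each list, up to 4 genes by adjusted p were eligible to be named. PSMB5, PSMC6, PSMD14 and the list genes NFE2L2, ADRM1, VCP, COPS2 and PSME1 fall outside that rule and were added after their values were seen. The members and lists were chosen with earlier results of these data known. The targeted gene's own counts are not reported here. The edgeR step was also run on simulated counts, for the mean of both hairpins over scramble only. That simulation gave all libraries the same spread and no difference between arms. It therefore does not test the shared fit where the arms differ in spread. By GENCODE 29, exons of 9 members overlap a gene on the opposite strand, and 27 pseudogenes are named after 10 members, of which 0 are in the table; reads of such copies may be split. Figures were drawn with matplotlib 3.10.9.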

Additional observations from a re-analysis of the deposited data

Results flagged for a closer look

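The direct test of shRNA-1 against shRNA-2 (edgeR, p adjusted over all genes) called 10 of the genes named from the lists. They were named for small adjusted p-values, in part from this comparison, in which 14.3% of all genes were called, so their number is no result. COPS8 (log2 difference 0.92, adjusted p 0.00015) and COPS7B (0.68, adjusted p 0.005), both COP9 signalosome subunits, were higher with shRNA-1. EIF3J (0.47, adjusted p 0.0028) and PSME3 (0.51, adjusted p 0.005) were also higher with shRNA-1. MAFF (-0.93, adjusted p 0.00018), MAFG (-0.65, adjusted p 0.00075) and MAFK (-0.39, adjusted p 0.015) were lower with shRNA-1, as were NFE2L1 (-0.34, adjusted p 0.014), POMP (-0.37, adjusted p 0.033) and EIF3A (-0.27, adjusted p 0.028). This test does not say which hairpin departed from the controls. COPS8 means were 47.9 CPM with shRNA-1, 25.3 with shRNA-2, 41.8 in scramble and 44.4 in vector. EIF3J means were 70.3, 50.8, 67.7 and 65.0 CPM in the same order. For both genes shRNA-2 was thus the group apart. EIF3A means were 800 CPM with shRNA-1 and 966 with shRNA-2, both above scramble (744) and vector (592). With any 1 of the 4 hairpin libraries left out, COPS8, MAFF, MAFG and EIF3J were still called, COPS7B and PSME3 were called in 2 of 4 cases, and NFE2L1, MAFK, POMP and EIF3A in 0 of 4.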

How the results depend on the processing

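The counts of members called moved as follows. With the fit to 1 arm they were 6 for the mean of both hairpins, 7 for shRNA-1 and 4 for shRNA-2 over scramble, 13 and 20 for shRNA-1 and shRNA-2 over vector, 9 for scramble over vector and 9 between the hairpins. With the replicate block they were 0 for the mean of both hairpins, 0 for shRNA-2 over scramble, 1 for shRNA-2 over vector and 0 for scramble over vector; the block changed no other count. Replicate numbers did not pair the libraries in the knockdown arm (correlations -0.048 to 0.030). In the knockout arm the correlation was -0.578, so knockout replicate 1 moved with control replicate 2, and knockout replicate 2 with control replicate 1. A crossed block in the knockout arm, added after seeing the data, called 0 members and 2.1% of all genes. With no filter the counts were 0 for the mean of both hairpins, 1 for shRNA-2 over scramble, 2 for shRNA-1 over vector and 2 for scramble over vector. For shRNA-2 over scramble they were 1 with RLE size factors and 0 with DESeq2. Leaving out 1 library in turn gave 0 to 19 members in the knockout, 0 to 7 for the difference of effects, 0 to 1 for shRNA-2 over vector, 29 to 31 between arm controls and 0 in the other comparisons. The median of the members then ran from -0.29 to 0.11 in the knockout, -0.19 to 0.14 for the difference of effects and 0.81 to 1.17 between arm controls. With vector alone as control, 30 members were called between arms. The fit to 1 arm cannot give the difference of effects or the arm comparison. The lowest member count was 250, so counting error adds to the spread between libraries, most for the lowest members.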
